A study of Mus musculus with 33 samples.

Results

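The genes described here build the ribosome in the nucleolus, together with the DEAD-box RNA helicases. They were chosen by symbol and not by a cut-off on their values, although earlier results of these data were known. The symbols were numbered Nop, Nol, Utp, Rrp, Npm and Ddx genes (without Ddx58), Polr1 genes, Rrs1, Bop1, Pes1, Gar1, Nhp2, Imp3, Imp4, Dkc1, Fbl, Ncl, Gnl2, Gnl3, Wdr12, Wdr36, Wdr43 and Wdr75. The array annotation held 77 such symbols, and 61 of them had values, among 9672 genes with values in all. Of these, 32 were measured on all 33 arrays, as were 4612 genes in all. Ddx10, Ddx25, Ddx28, Ddx39b, Ddx4, Ddx6, Gnl2, Imp4, Ncl, Nol12, Nop16, Nop56, Polr1b, Rrp36, Rrs1 and Utp25 had probes but no value. The name of the set fits most of its members, but 12 of the 61 are DEAD-box helicases that work mainly outside the nucleolus, and Nol3, Nol4 and Nol4l share only the letters of the symbol.

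Spleen cells of female BALB/c mice aged 2 months were cultured at 37 C for 2, 4 or 8 h. They received 1 uM of CpG ODN (equal parts of ODN 1555 and 1466), 1 uM of a control ODN without CpG motifs (ODN 1612 and 1471), or medium alone. Each group had 4 arrays at 2 h and at 4 h and 3 arrays at 8 h, from 3 to 4 independent experiments per the design text. Whether spleens were pooled within an experiment is not given in the sources used here, and p-values measure only the spread between these samples. Every value is the log ratio of Cy5-labelled spleen cell cDNA to Cy3-labelled cDNA of a common reference RNA pooled from mouse tissues and cell types. Its base is unstated and was taken as 2, so that a difference of 1 would be a 2-fold change. Each array was centred on its median. Whole spleen cells are a mixture, so fewer cells of a type and less RNA per cell cannot be told apart.

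Ribosome assembly starts in the nucleolus, where RNA polymerase I transcribes the ribosomal RNA precursor. The small-subunit processome folds and cuts the 18S part of that precursor, the PeBoW complex and other factors prepare the large subunit, and box C/D and H/ACA ribonucleoproteins modify bases under the guidance of small nucleolar RNAs. DEAD-box helicases unwind or remodel RNA at many of these steps and also in splicing, export and translation. CpG ODN are DNA ligands of Toll-like receptor 9, and lymphocytes that leave rest enlarge their nucleoli.

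Because 18 members were called higher at 8 h, the DNA upstream of their starts is shown for a few of them. Promoters came from RefSeq (GRCm38.p6) and were found for 48 of the 61 members, including 14 of the 18 that were called higher at 8 h. The lines give the 100 bases before the start, read 5′ to 3′ along the gene. They cover the 6 called members of largest difference among those with a single promoter in the set. Wdr36 had none there, and Rrp1b and Wdr12 had several. Nop2 was picked by hand as a contrast. Its difference of 0.19 was not called and came from -0.22 and -0.45 with CpG ODN against 0.21 and -1.27 with control ODN. Capitals mark any of 5 motifs searched on both strands: the E-box CACGTG, the ETS core CCGGAAG, the GC box GGGCGG, the CCAAT box CCAAT and the TATA box TATAAA.
Ddx21, chr10:62602299-62602398, minus strand: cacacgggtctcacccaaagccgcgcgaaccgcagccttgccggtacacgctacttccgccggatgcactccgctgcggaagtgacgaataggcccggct
Nop58, chr1:59684906-59685005, plus strand: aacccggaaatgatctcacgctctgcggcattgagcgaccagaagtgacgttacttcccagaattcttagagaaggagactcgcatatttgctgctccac
Rrp9, chr9:106477209-106477308, plus strand: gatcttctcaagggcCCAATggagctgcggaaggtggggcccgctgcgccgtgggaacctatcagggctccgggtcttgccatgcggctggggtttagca
Rrp15, chr1:186749359-186749458, minus strand: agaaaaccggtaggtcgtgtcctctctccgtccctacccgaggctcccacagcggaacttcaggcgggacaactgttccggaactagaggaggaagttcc
Gar1, chr3:129831397-129831496, minus strand: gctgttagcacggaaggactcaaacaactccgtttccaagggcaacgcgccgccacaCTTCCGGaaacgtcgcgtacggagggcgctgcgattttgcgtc
Nol11, chr11:107189382-107189481, minus strand: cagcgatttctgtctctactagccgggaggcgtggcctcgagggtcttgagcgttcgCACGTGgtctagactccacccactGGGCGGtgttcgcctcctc
Nop2, chr6:125131783-125131882, plus strand: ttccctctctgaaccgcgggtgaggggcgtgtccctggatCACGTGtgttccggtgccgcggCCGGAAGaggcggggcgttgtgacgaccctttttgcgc
In the 250 bases before the start, the E-box was present in 2 of 17 promoters of members called higher at 8 h (11.8%), those of Nol11 and Rrp7a. It was present in 3 of 43 promoters of members that were not called (6.98%), those of Ddx42, Ddx5 and Nop2, and in 6.02% of all 32851 promoters. The GC box was found in 64.7% of promoters of called members, 55.8% of those of the other members and 32.7% of all. The ETS core lay in 1 called promoter, that of Gar1 (5.88%), against 10 of the others (23.3%) and 6.91% of all. The CCAAT box was found in 41.2%, 30.2% and 33.8%, and the TATA box in 5.88%, 9.3% and 12.4%, in the same order. These shares describe letters in a window and were not tested.

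At 8 h, part of the ribosome assembly genes were higher with CpG ODN than with control ODN. In the limma fit across all genes, 18 of 61 were called higher at a Benjamini-Hochberg adjusted p below 0.05 and 0 were called lower, against 4.55% of all 9494 genes called higher and 5.45% called lower. The median difference of the 61 genes was 0.40 on the log2 scale, against -0.12 for all genes tested, and 50 of the 61 differences were above 0, as were 38.7% of all. For 27 members every CpG ODN array lay above every control ODN array (10.8% of all genes), and for 0 members every array lay below (19.3% of all). Against medium, 17 of 61 were called higher and 0 lower (5.66% and 6.11% of all genes), with a median of 0.31 against -0.13. Both comparisons used the same 3 CpG ODN arrays. Against medium, 46 of 61 differences were above 0 (38.4% of all), every CpG ODN array lay above every medium array for 27 members (10.4% of all) and below for 0 (17.7%). An unadjusted p below 0.05 was reached by 25 members against control ODN and 26 against medium, or 41% and 42.6%, where 22.2% and 25% of all genes reached it. Between control ODN and medium at 8 h, limma called 0 of 61 members and 0 of all 9526 genes (0%); 3 members had an unadjusted p below 0.05, or 4.92% against 3.98% of all genes. When CpG ODN replicate 2 was left out, 11 members were called against control ODN, a count given here without the share of all genes.

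**Figure D1:**
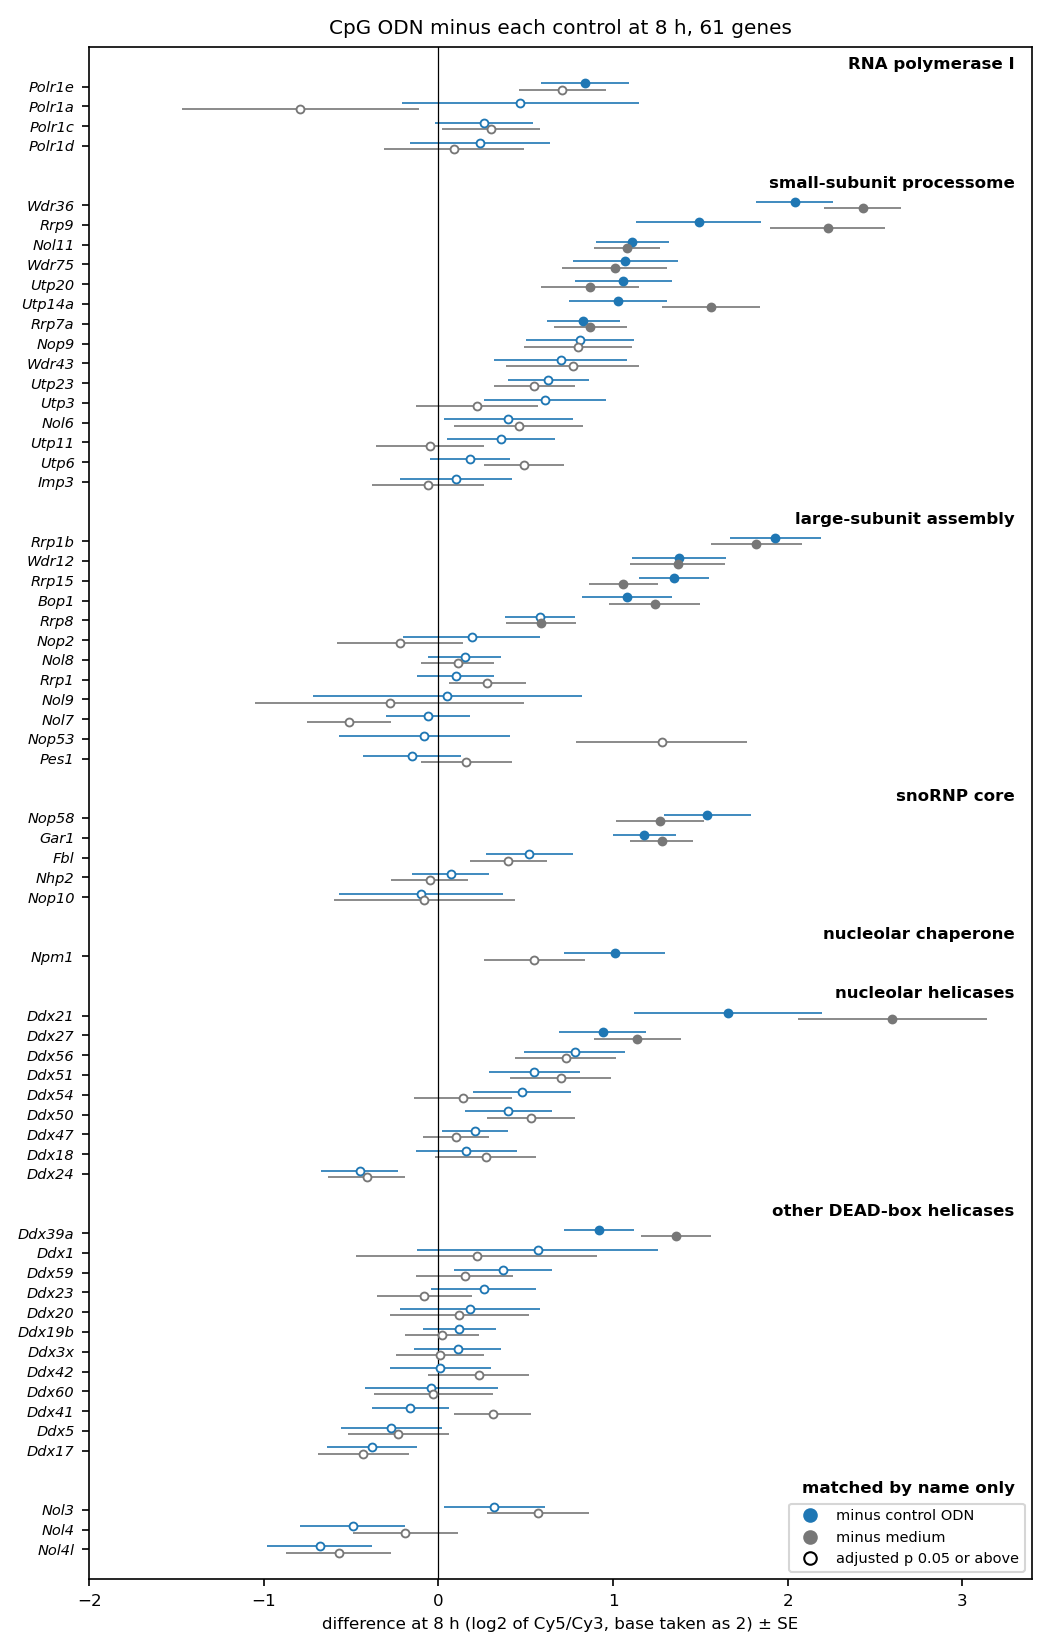
Difference at 8 h between CpG ODN and control ODN (blue) and between CpG ODN and medium (grey) for each of the 61 measured genes, in log2 units with the standard error (SE) as bars, grouped by role. Filled points passed the adjusted p threshold of 0.05; the highest blue point is Wdr36 at 2.04 and the lowest is Nol4l at -0.68.

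The small-subunit processome held the most called members, 7 of 15, with a median difference of 0.81 against control ODN, and in 12 of the 15 every CpG ODN array was above every control ODN array. Wdr36, a WD-repeat subunit of the UTP-B complex, read 1.65, 2.53 and 2.17 with CpG ODN at 8 h, -0.33, 0.11 and 0.45 with control ODN, and -0.26, -0.73 and 0.04 in medium. The groups were far apart, and the difference from control ODN was 2.04 ± 0.22 (SE, 3 against 3 arrays, 4.11-fold, limma adjusted p = 7.89e-08). Rrp9, a protein of the U3 ribonucleoprotein, read 0.68, 1.39 and 1.15 with CpG ODN, -0.17 and -0.66 on the 2 control ODN arrays that measured it, and -0.34, -1.87 and -1.26 in medium. It rose by 1.49 ± 0.36 over control ODN (adjusted p = 0.0105) and by 2.23 ± 0.33 over medium. Nol11, which couples processome assembly to transcription of the precursor, read 0.23, 0.77 and 0.68 with CpG ODN against -0.52 and -0.58 on 2 control ODN arrays and -0.37, -0.53 and -0.67 in medium, a rise of 1.11 ± 0.21 over control ODN. No array of a control reached the CpG ODN arrays for either gene. Rrp9 lost its call without CpG ODN replicate 2 (adjusted p = 0.0505).

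Of the other processome members, Wdr75 rose by 1.07 ± 0.30, Utp20 by 1.06 ± 0.28, Utp14a by 1.03 ± 0.28 and Rrp7a by 0.83 ± 0.21 over control ODN, each with 3 arrays against 3 and with every CpG ODN array above. Against medium these 4 also rose, by 1.01, 0.87, 1.56 and 0.87. Utp14a in medium ranged from -1.07 to 0.49, with replicate 2 the lowest. The calls of these 4 against control ODN were less secure than that of Wdr36: leaving out CpG ODN replicate 2 ended those of Utp20 and Rrp7a, CpG ODN replicate 3 those of Utp14a and Wdr75, control ODN replicate 2 that of Utp14a, and control ODN replicate 3 those of Utp20 and Wdr75. The 8 members that were not called had differences between 0.10 and 0.81: Nop9 0.81 ± 0.31, Wdr43 0.70 ± 0.38, Utp23 0.63 ± 0.23, Utp3 0.61 ± 0.35, Nol6 0.40 ± 0.37, Utp11 0.36 ± 0.31, Utp6 0.18 ± 0.23 and Imp3 0.10 ± 0.32. Nop9, Utp23, Utp3, Nol6 and Utp6 had every CpG ODN array above control ODN. Against medium, the Utp20 call (adjusted p = 0.0441) ended without any 1 of the CpG ODN arrays or without medium replicate 1 or 3, that of Wdr75 without CpG ODN replicate 2 or 3 or medium replicate 1, and that of Rrp7a without CpG ODN replicate 2.

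Of 12 large-subunit assembly factors, 4 were called higher and 8 were not called, with a median of 0.17; of the 4, the probes of Bop1 disagree. Rrp1b, a nucleolar protein related to Rrp1, read 0.71, 1.38 and 1.05 with CpG ODN, -0.89, -0.89 and -0.87 with control ODN, and -0.94, -0.62 and -0.77 in medium. The difference from control ODN was 1.93 ± 0.26 (3.81-fold, limma adjusted p = 3.27e-06), while its relative Rrp1 differed by 0.10 ± 0.22. Rrp15, needed for large-subunit precursors, read 0.17, 0.47 and 0.68 with CpG ODN against -0.84, -0.87 and -1.02 with control ODN and -0.71, -0.50 and -0.64 in medium, a rise of 1.35 ± 0.20. Both genes separated CpG ODN from both controls on every array.

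The PeBoW complex, which processes the precursor of the large-subunit RNA, has the subunits Pes1, Bop1 and Wdr12. Wdr12 read -0.23, 0.06 and 0.60 with CpG ODN, -1.39, -1.13 and -1.20 with control ODN and -1.44, -1.29 and -0.95 in medium, and rose by 1.38 ± 0.27 over control ODN (limma adjusted p = 0.00066). Bop1 read -0.02, 0.72 and 0.27 with CpG ODN, -0.70, -0.68 and -0.90 with control ODN and -0.77, -1 and -0.98 in medium, a rise of 1.08 ± 0.26. A second Bop1 probe, measured on 27 arrays, gave -0.04 for the same comparison, against the rise on the first; with both averaged, the rise over medium of 1.24 became 0.46 and was not called. Also, the Bop1 call was lost without CpG ODN replicate 2 (adjusted p = 0.0556). Pes1, with 2 arrays against 2, differed by -0.15 ± 0.28, and its 8 h arrays overlapped between groups. Rrp8, which methylates a base of the large-subunit RNA, missed the threshold against control ODN (0.58 ± 0.20, adjusted p = 0.0564) and passed it against medium (0.59 ± 0.20, adjusted p = 0.0452), a call that was lost without any 1 of the 3 medium arrays or without CpG ODN replicate 2 or 3. Nop2, Nol8, Nol9, Nol7 and Nop53 had differences from control ODN between -0.08 and 0.19. For Nol9 the arrays of each group scattered (SE 0.77).

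The ribonucleoproteins that modify ribosomal RNA gave 2 called members of 5. Nop58, a core protein of box C/D particles, read 0.44, 1.4 and 1.06 with CpG ODN, -0.46, -0.70 and -0.56 with control ODN and -0.39, -0.19 and -0.33 in medium, and rose by 1.54 ± 0.25 over control ODN (2.91-fold, limma adjusted p = 7.43e-05). Fbl, the methyltransferase of the same particles, differed by 0.52 ± 0.25 with 3 arrays against 2 and was not called (adjusted p = 0.224). Gar1, a core protein of H/ACA particles, which make pseudouridine, read 0.24, 0.72 and 0.71 with CpG ODN, -0.35, -0.84 and -0.68 with control ODN and -0.40, -0.84 and -0.95 in medium. Its difference was 1.18 ± 0.18 (2.26-fold, adjusted p = 4.19e-05). The other H/ACA proteins measured, Nhp2 and Nop10, differed by 0.07 ± 0.22 and -0.10 ± 0.47, each with 2 CpG ODN arrays against 3.

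Npm1, the abundant nucleolar chaperone nucleophosmin, read -0.12, 0.25 and 0.15 with CpG ODN at 8 h, -1.06, -0.69 and -1.01 with control ODN and -0.96, -0.28 and -0.15 in medium. Every CpG ODN array was above every array of both controls, but the medium arrays spread towards them. Npm1 rose by 1.01 ± 0.29 over control ODN (limma adjusted p = 0.0234), and its 0.55 ± 0.29 over medium was not called (adjusted p = 0.243). The Npm1 call ended when control ODN replicate 1 or 3 was left out, and likewise for CpG ODN replicate 2 or 3. Among RNA polymerase I subunits, Polr1e was called and read 0.30, 1.05 and 1.37 with CpG ODN, -0.34, 0.18 and 0.36 with control ODN and 0.12, 0.17 and 0.32 in medium. The lowest CpG ODN array lay within both control groups. The rise was 0.84 ± 0.25 over control ODN (adjusted p = 0.03). Removing CpG ODN replicate 2 alone ended this call, and so did removing CpG ODN replicate 3, control ODN replicate 1 or control ODN replicate 2. The Polr1e call was also lost with the compared groups alone in the fit. Polr1a, the largest subunit, and Polr1c and Polr1d, which RNA polymerase III also uses, differed by 0.47 ± 0.68, 0.26 ± 0.28 and 0.24 ± 0.40.

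Nucleolar helicases gave 2 called members of 9 and a median of 0.48. Ddx21, which binds ribosomal DNA and small nucleolar RNAs, read 1.16, 2.48 and 2.90 with CpG ODN, 0.41, -0.60 and 1.75 with control ODN and 0.66, -2.16 and 0.25 in medium. The CpG ODN and control ODN arrays overlapped, and the difference of 1.66 ± 0.54 only just passed (limma adjusted p = 0.0456). The call ended when 1 array was left out, for CpG ODN replicates 2 and 3 as well as control ODN replicates 1 and 2. It also ended without the 4 arrays with earlier database numbers, and with the compared groups alone in the fit. Against medium Ddx21 rose by 2.60 ± 0.54, with replicate 2 of medium the lowest array by far; without that array the rise was 1.73 (limma adjusted p = 0.0266), and with the compared groups alone in the fit the 2.60 was not called (adjusted p = 0.0894). Ddx27, a helicase of large-subunit maturation, read 0.53, 0.44 and 0.56 with CpG ODN, -0.49, -0.56 and -0.23 with control ODN and -0.70, -0.82 and -0.37 in medium, and rose by 0.94 ± 0.25 over control ODN, lost without control ODN replicate 2 (adjusted p = 0.0618). Differences of Ddx56 (0.78 ± 0.29), Ddx51 (0.55 ± 0.26) and Ddx54 (0.48 ± 0.28) were not called, although every CpG ODN array was above control ODN. Ddx50, a relative of Ddx21, Ddx47 and Ddx18 lay at 0.40 ± 0.25, 0.21 ± 0.19 and 0.16 ± 0.29. Ddx24 was the lowest at -0.45 ± 0.22.

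Of the 12 DEAD-box helicases with main roles elsewhere, 1 was called and the median was 0.11, against -0.12 for all genes. Ddx39a, an mRNA export helicase, read 0.48, 0.89 and 1.04 with CpG ODN, 0.03, -0.28 and -0.10 with control ODN and -0.66, -0.60 and -0.40 in medium. It rose by 0.92 ± 0.20 over control ODN (limma adjusted p = 0.00223) and by 1.36 ± 0.20 over medium. Its close relative Ddx39b had no value, and whether the Ddx39a probe also captures it was not tested. The translation helicase Ddx3x differed by 0.11 ± 0.25 (second probe 0.37), the export helicase Ddx19b by 0.12 ± 0.21 and the spliceosomal Ddx23 by 0.26 ± 0.30. Ddx1, Ddx59, Ddx20 and Ddx42 lay between 0.01 and 0.57. Ddx5 and Ddx17, related helicases of transcription and splicing, were at -0.27 ± 0.29 and -0.38 ± 0.26, and Ddx41, implicated in DNA sensing and splicing, at -0.16 ± 0.22. Ddx60, known as an interferon-induced helicase, differed by -0.04 ± 0.38 with 2 arrays against 2.

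Of the 3 members matched by name alone, 0 were called at 8 h, with unadjusted p below 0.05 for Nol4l alone. Nol4l had the lowest difference of all members, with -2.11, -1.24 and -1.98 under CpG ODN, -1.43, -1.22 and -0.65 under control ODN and -1.45, -1.01 and -1.16 in medium. The arrays overlapped, and the difference of -0.68 ± 0.30 was not called by limma (adjusted p = 0.164). Nol4 stood at -0.49 ± 0.30 and Nol3, a repressor of apoptosis, at 0.32 ± 0.29.

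**Figure D2:**
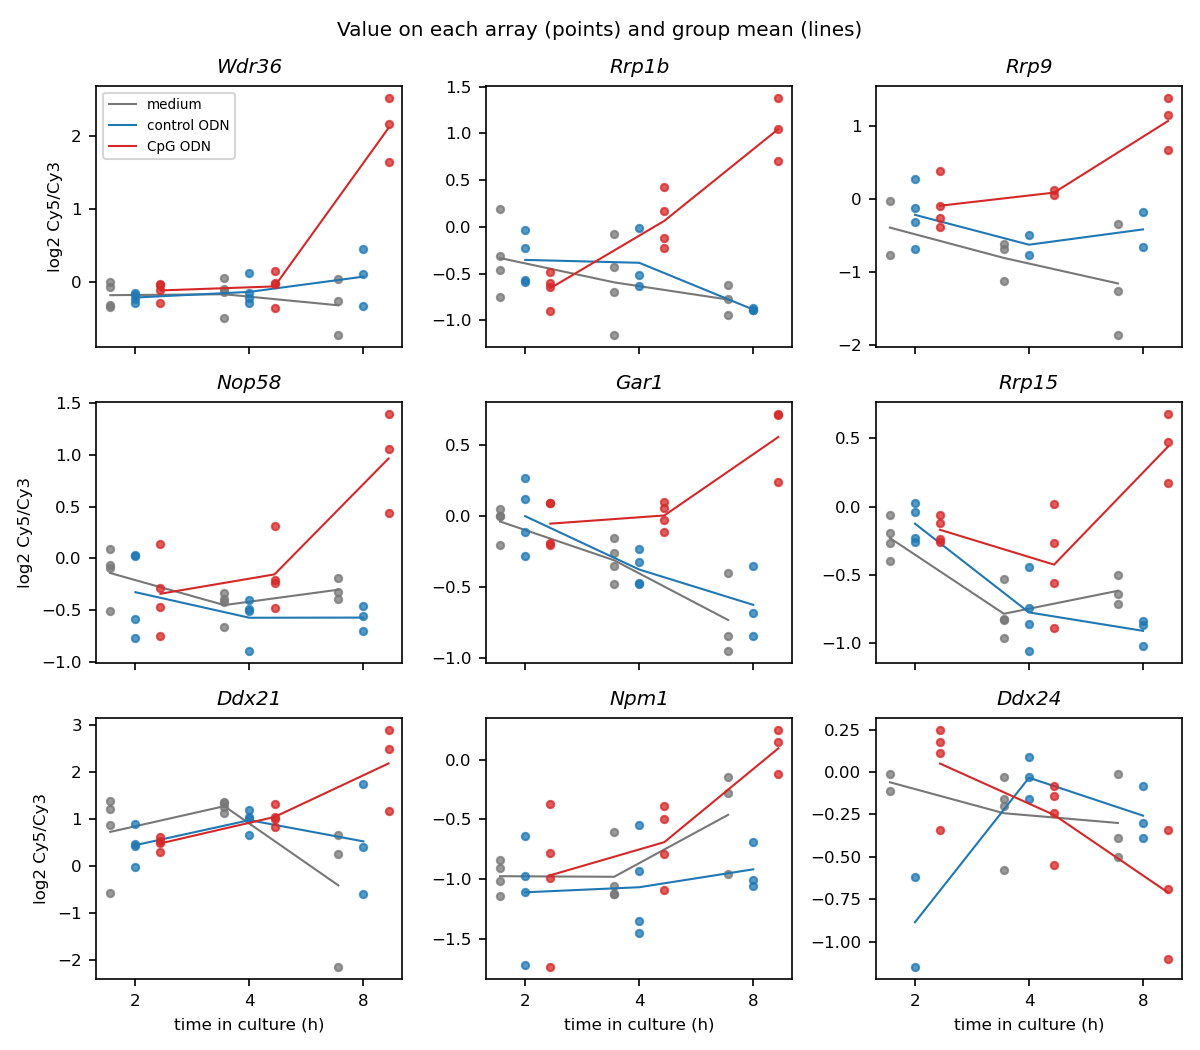
Value on every array (points) and group means (lines) at 2, 4 and 8 h for 9 genes, as log2 of Cy5 over Cy3, with medium in grey, control ODN in blue and CpG ODN in red. The CpG ODN arrays of Wdr36, at most 0.15 at 2 and 4 h, lie between 1.65 and 2.53 at 8 h; lines join groups of different arrays.

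The calls came at 8 h. At 2 h, 0 of the 56 members tested were called for CpG ODN against control ODN by limma (0.043% of all genes were), 2 had an unadjusted p below 0.05 (3.57%, against 2.29% of all genes), and the median was -0.03. At 4 h, 0 of 61 were called (0.384% of all). By then 9 members, or 14.8%, had an unadjusted p below 0.05, against 3.17% of all genes; the median was 0.21 against -0.01, and 51 of 61 differences were above 0 (47.2% of all). These 9 were Bop1, Ddx27, Ddx39a, Gar1, Nol11, Polr1c, Rrp15, Rrp7a and Wdr12, with differences between 0.35 and 0.62. Against medium, 0 members were called at 2 h (0.042% of all) and at 4 h (0.218%), and 1 and 3 members had an unadjusted p below 0.05 (1.69% and 4.92%, where all genes gave 5.52% and 4.84%). Control ODN against medium gave 0 calls at 2 h and at 4 h in the limma fit (0% of all genes). There, 2 and 1 members had an unadjusted p below 0.05 (3.57% and 1.64%, where all genes gave 2.48% and 1.83%). The member median at 4 h was 0.09 for CpG ODN against medium and -0.09 for control ODN against medium (-0.04 for all genes in both). The 0.21 against control ODN was thus larger than the median against medium.

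For 5 of 61 members every CpG ODN array was above every control ODN array at 4 h (2.22% of all genes), and Gar1 and Nol11 were among these. Gar1 read -0.11, 0.06, -0.03 and 0.10 with CpG ODN at 4 h against -0.32, -0.23, -0.48 and -0.47 with control ODN, a difference of 0.38 ± 0.16. Nol11 read -0.32, -0.14, 0.39 and -0.07 against -0.67, -0.59 and -0.73, a difference of 0.62 ± 0.18 (limma adjusted p = 0.269). Wdr36, by contrast, read -0.02, -0.35, 0.15 and -0.01 with CpG ODN at 4 h and -0.22, -0.15, 0.12 and -0.28 with control ODN, and these groups overlapped.

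The change of the difference between CpG ODN and control ODN from 2 h to 8 h was tested itself. It was called for 8 of 56 members, against 3.26% of all genes (2.13% higher and 1.13% lower), with a median of 0.54 against -0.11. The difference grew for Rrp1b (2.23 ± 0.34), Wdr36 (1.94 ± 0.29), Nop58 (1.56 ± 0.33), Wdr12 (1.43 ± 0.35), Rrp15 (1.39 ± 0.26), Nol11 (1.27 ± 0.27) and Gar1 (1.23 ± 0.24). Ddx24 went the other way, by -1.39 ± 0.32: at 2 h it read 0.11, -0.34, 0.18 and 0.25 with CpG ODN and -1.15 and -0.62 on the 2 control ODN arrays that measured it, and at 8 h -0.34, -0.69 and -1.10 against -0.08, -0.30 and -0.39. The Ddx24 change thus rests on 2 control ODN arrays at 2 h. It was not called with the compared groups alone in the fit (limma adjusted p = 0.0722). The Wdr12 call (limma adjusted p = 0.0167) was lost without CpG ODN replicate 3 at 8 h (adjusted p = 0.081). From 2 h to 4 h the change was called by limma for 0 of 56 members (0.0108% of all genes), with 3 at an unadjusted p below 0.05 (5.36%, where all genes gave 1.97%).

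**Figure D3:**
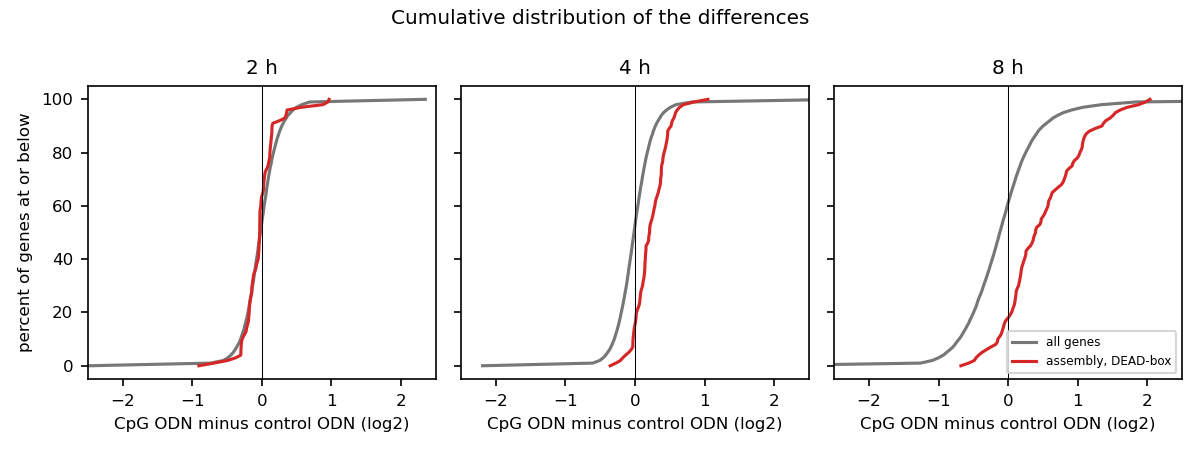
Cumulative share of genes (percent) by difference between CpG ODN and control ODN (log2) at 2, 4 and 8 h, for the ribosome assembly and DEAD-box genes (red) and all genes tested (grey). The red median moves from -0.03 at 2 h to 0.21 at 4 h and 0.40 at 8 h, while the grey median lies at -0.02, -0.01 and -0.12.

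Within treatments, most members called over time rose under CpG ODN, while more fell than rose in each control. From 2 h to 8 h, 16 of 60 members were called higher and 1 lower under CpG ODN (8.45% and 8.13% of all genes); the highest were Wdr36 (2.23 ± 0.21), Rrp1b (1.70 ± 0.24) and Ddx21 (1.70 ± 0.50), and the fall was Ddx24 (-0.76 ± 0.21). Without CpG ODN replicate 2 or 3 of the 8 h group, 9 members were called; the Ddx21 call was lost without either, and that of Ddx24 without replicate 3. Wdr43 was among the risers (1.13 ± 0.35), although it was not called against either control at 8 h, and its call over time was lost without replicate 1 at 2 h or replicate 3 at 8 h. In medium 1 member rose and 5 fell (9.26% and 5.3% of all genes), and the median was -0.23. Gar1 fell by 0.69 ± 0.17, Ddx27 by 0.78 ± 0.24 and Rrp7a by 0.61 ± 0.20. These 3 calls were lost when single arrays were left out: Gar1 without replicate 3 at 8 h, Ddx27 without replicate 1 or 2 at 8 h, and Rrp7a without replicate 1, 3 or 4 at 2 h or replicate 2 or 3 at 8 h. The falls of Nop53 (-1.52 ± 0.46) and Polr1a (-2.73 ± 0.76) rest on few arrays, since Nop53 read -2.73 on replicate 2 at 8 h against 0.14 and 0.16 on the others, and Polr1a was measured at 2 h on 2 arrays, at 1.51 and 5.45. Without replicate 4 at 2 h, or without replicate 2 at 8 h, 3 members were called in medium. Under control ODN, Rrp15 (-0.78 ± 0.18), Gar1 (-0.63 ± 0.17) and Nol11 (-0.62 ± 0.20) fell and Nol4 rose, 4 of 57 members (7.61% of all genes were called higher and 2.48% lower, 10.1% together). That count became 2 without replicate 3 at 2 h or without replicate 2 or 3 at 8 h; Gar1 was lost without any 1 of these 3 arrays, and Nol11 without replicate 1 or 3 at 2 h. Nol4 was called higher in each treatment, by 1.08 ± 0.28 in medium, 1.46 ± 0.30 with control ODN and 0.82 ± 0.28 with CpG ODN. Its CpG ODN call (limma adjusted p = 0.0453) was lost in 8 of 16 settings, among them the omission of any 1 of the 8 h arrays or of replicate 1, 3 or 4 at 2 h, and its medium call was lost without replicate 3 at 8 h. Time was not separated from experiment in these comparisons.

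**Figure D4:**
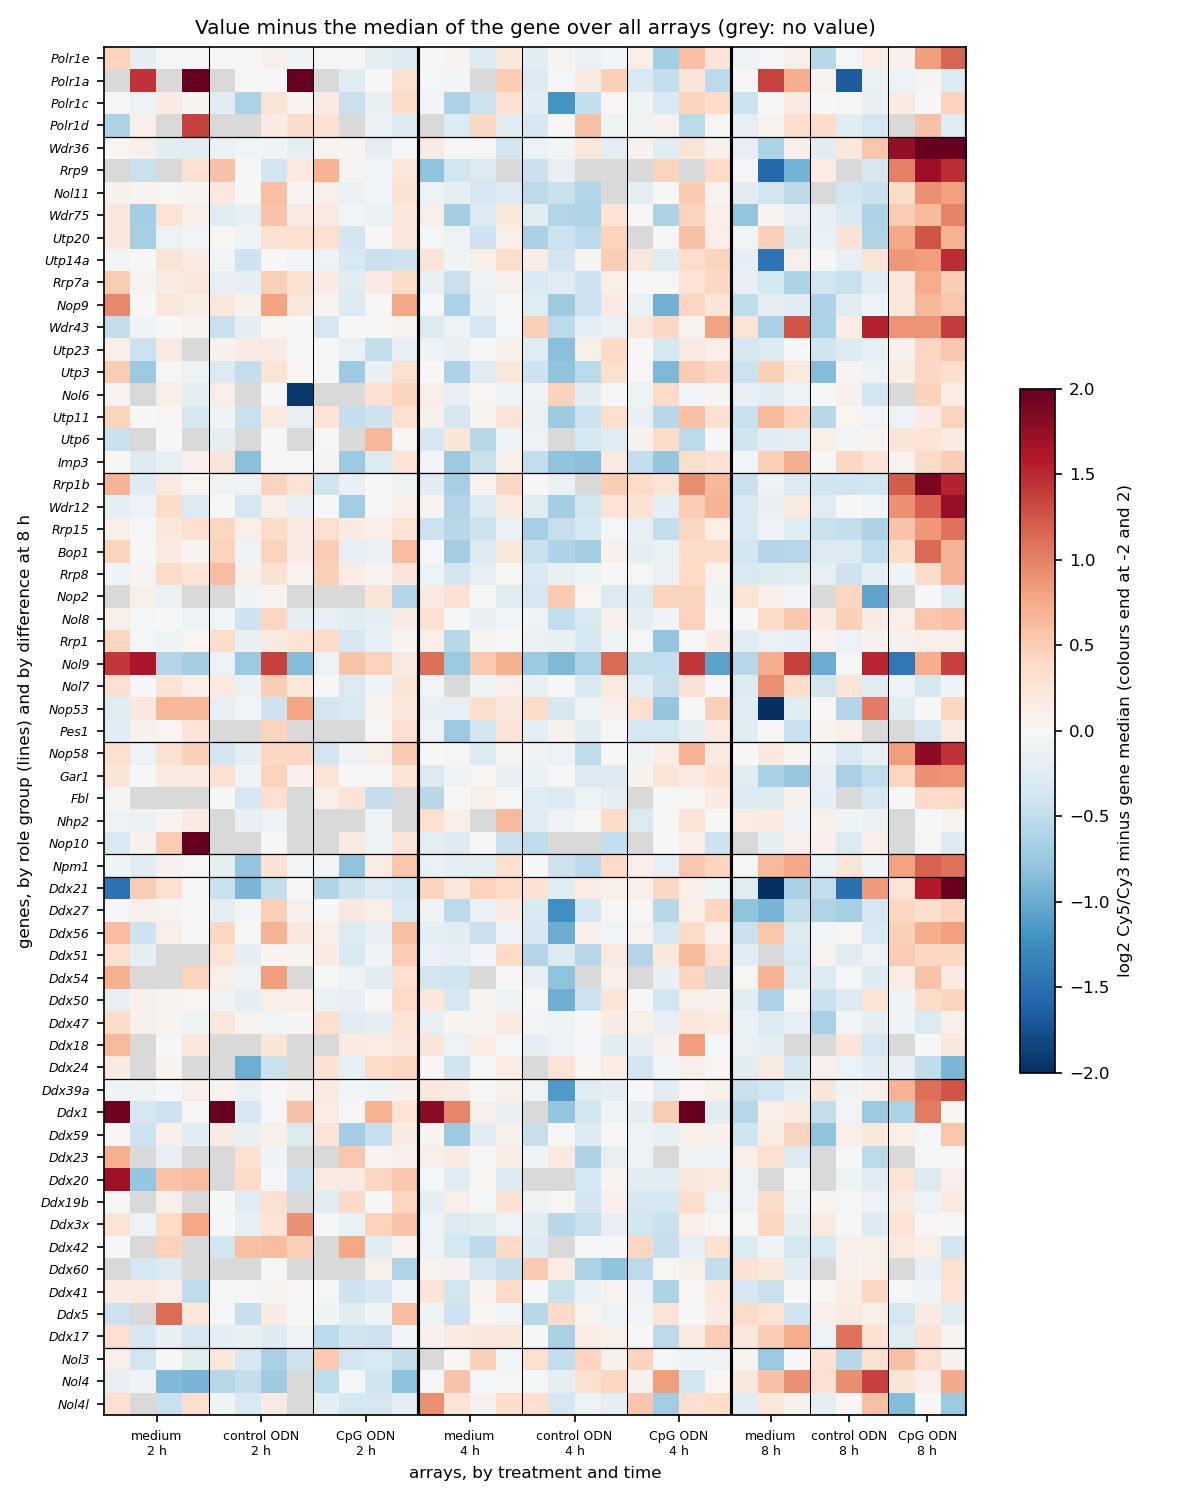
Value of each of the 61 genes (rows, grouped by role) on each of the 33 arrays (columns, grouped by time and treatment) minus the gene's median, in log2 units, with grey for no value. The small-subunit processome held the most members called higher with CpG ODN than with control ODN at 8 h, 7 of 15.

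Averaged over the 32 members measured on all arrays, the CpG ODN arrays at 8 h read 0.16, 0.53 and 0.69, the control ODN arrays -0.41, -0.24 and -0.02 and the medium arrays -0.38, -0.40 and -0.06. Replicate 1 was the lowest of the CpG ODN arrays. Arrays at 2 and 4 h lay between -0.64 and 0.21, so that replicate 1 of CpG ODN at 8 h fell within their range. Between 47 and 61 members were measured per array, the fewest on replicate 4 of control ODN at 2 h, which also had the fewest probes with a value (7908, against up to 11129). All pairs of arrays correlated between 0.664 and 0.961 over all probes.

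Assembly factors with other names, listed with earlier results of these data known, were counted in the same way. Of 58 such genes tested, 21 were called higher and 1 lower against control ODN at 8 h (4.55% and 5.45% of all genes), with a median of 0.44 and a range from -1.05 to 1.61, and 36 were not called. Against medium 16 were higher and 0 lower (5.66% and 6.11% of all genes). Sdad1, a factor of large-subunit export, rose by 1.61 ± 0.21, Tbl3, a UTP-B subunit, by 1.60 ± 0.22, and Nolc1, a chaperone of small nucleolar ribonucleoproteins, by 1.59 ± 0.28, while Rpp25, an RNase P subunit, fell by 1.05 ± 0.34. The 21 rises became 11 when CpG ODN replicate 3 was left out, and leaving out replicate 2 in its place gave 13. Of 10 nuclear exosome genes, 0 were called, with a median of 0.41.

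Of 17 DEAH and other RNA helicases, 3 were called higher and 1 lower against control ODN at 8 h. Among all genes, 4.55% were called higher and 5.45% lower, the shares to set beside each count in this comparison. Dhx58, an interferon-induced helicase of RNA sensing, rose by 2.62 ± 0.23, Mov10 by 2.35 ± 0.31 and the translation helicase Eif4a1 by 1.34 ± 0.31, and Dhx40 fell by 0.86 ± 0.19. RNA polymerases II and III had 3 called subunits of 15, all higher: Polr3d (1.22 ± 0.23), Polr2h (1.00 ± 0.31) and Polr3e (0.98 ± 0.28); leaving out control ODN replicate 2, CpG ODN replicate 2 or CpG ODN replicate 3 reduced them to 1. Myc, a transcription factor known to drive ribosome assembly genes, rose by 1.56 ± 0.29 (limma adjusted p = 0.000353), and its antagonists Mxd4 (-1.04 ± 0.23) and Mxi1 (-0.62 ± 0.19) fell, 3 of 11 family members called. The 2 falls became 1 when control ODN replicate 2 or CpG ODN replicate 1 or 2 was left out, and after quantile normalization. Family members that were not called went both ways, among them Mxd1 at 0.96 ± 0.50, Mnt at -0.48 ± 0.32 and Mxd3 at -0.34 ± 0.28. The family median was -0.26. Of 20 cell cycle genes, 1 was called, Mcm6 (0.91 ± 0.23), with a median of 0.00.

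Among the protein components of the ribosome itself, the called cytosolic ones were lower with CpG ODN than with control ODN. Of 54 cytosolic ribosomal protein genes, 22 were called lower and 0 higher against control ODN at 8 h (5.45% and 4.55% of all genes). Their median was -0.51, and 12 of the 54 differences were above 0, the highest 0.69. The called differences were largest for Rpl26 (-0.71 ± 0.18), Rpl6 (-0.67 ± 0.18) and Rps16 (-0.67 ± 0.18). Over time, the control ODN cultures moved more than the CpG ODN cultures. From 2 h to 8 h, 16 of the 54 genes were called higher under control ODN (7.61% of all genes), with a median of 0.37. Under CpG ODN 0 were called (16.6% of all genes, median -0.15), and in medium 1 was called lower (5.3% of all genes, median 0.16). The 35 of them on all arrays averaged -0.16 to -0.12 with CpG ODN, 0.14 to 0.58 with control ODN and 0.24 to 0.31 in medium, so the CpG ODN arrays lay below all arrays of both controls, while the medium range lay within that of control ODN. The count of 22 against control ODN at 8 h was fragile. Leaving out control ODN replicate 1 gave 0 calls, leaving out CpG ODN replicate 1 gave 9 and replicate 2 or 3 gave 5. Quantile normalization gave 2, a fit of the compared groups alone 0, and against medium 2 were called lower (6.11% of all genes). The median lay between -0.54 and -0.36 in these settings. Their transcripts have many near-identical copies in the genome, which a probe may not tell apart. Mitochondrial ribosomal protein genes gave 3 called higher of 52, close to the 4.55% of all genes called higher. These were Mrps28 (1.20 ± 0.24), Mrps2 (0.99 ± 0.25) and Mrps34 (0.81 ± 0.24), and the median of the 52 was 0.13.

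Some markers of cell types changed with CpG ODN at 8 h as well. Among all genes, 4.55% were called higher and 5.45% lower against control ODN, and 5.66% and 6.11% against medium. A list with 1 call in a direction is too short to be set apart from these shares. Of 11 B cell markers, 3 were called lower than with control ODN (Cd79b, Cr2 and Cd37, by -1.87, -1.14 and -1.13), with a median of -1.07, and 5 of them measured on all arrays averaged 2.10 to 2.69 with CpG ODN, 3.19 to 4.00 with control ODN and 3.06 to 3.94 in medium, in log2 units over the reference. The average of these 5 B cell markers was thus well above the reference in all 8 h groups. Of 11 T cell markers 4 were called lower (median -0.63), Cd3g, Lat, Cd3e and Cd5, of 8 monocyte and macrophage markers Fcgr1 was higher and Cd14 lower (-0.46), of 6 neutrophil markers 0 were called (-0.68), of 4 erythroid markers Epb42 was lower (-0.83) and of 5 NK cell markers 0 (0.08). The T cell averages (2 genes) were -0.04 to 0.46 with CpG ODN, 0.63 to 1.33 with control ODN and -0.26 to 1.03 in medium. The monocyte and macrophage averages (4 genes) were -1.27 to -0.14, -0.75 to 0.20 and -1 to 0.03 in the same order, and the erythroid averages (2 genes) 1.61 to 1.76, 2.41 to 2.54 and 2.39 to 2.56. The neutrophil gene on all arrays read 2.31 to 3.37, 3.19 to 4.20 and 4.01 to 4.75, and the NK cell gene 3.16 to 4.11, 3.51 to 4.67 and 3.35 to 5.60. Against medium, 2 B cell markers (median -0.31), 1 T cell marker (-0.43), 1 neutrophil marker (-0.65) and 1 erythroid marker (-0.32) were called lower. Of the monocyte and macrophage markers 1 was higher and 1 lower (-0.09), and of the NK cell markers 0 were called (-0.47). Without control ODN replicate 1, or without CpG ODN replicate 2, 1 B cell marker was called against control ODN. In the same comparison, the T cell count became 2 without CpG ODN replicate 2 and after quantile normalization. The erythroid call against control ODN ended without control ODN replicate 3. The higher monocyte and macrophage call against control ODN ended without CpG ODN replicate 1 and without control ODN replicate 2 or 3. The part of these shifts in the rise of the ribosome assembly genes was not tested.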

How the data were processed

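The deposited table holds 1 log ratio per probe and array. Per the labels, Cy5 marked spleen cell cDNA and Cy3 the reference, and no dye was swapped. The log2 unit of the deposited values is an assumption, since the base is not stated; the sources used here do not give the authors' background correction, filtering or normalization. Depth is known only as probes with a value per array.

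Arrays were centred on their medians. Of 16720 probes, 11303 had a value; names came from the platform annotation, and the probe with the fewest missing values stood for a gene (511 genes had several). limma 3.58.1 in R 4.3.3 fitted 1 mean per group over 9 groups and 33 arrays, with moderated variances (prior degrees of freedom 5.75, median residual SD 0.35) and Benjamini-Hochberg adjustment over all genes of each of 14 comparisons. A gene needed 2 measured arrays in each compared group; missing values were left out, not imputed. The written-out fit was checked against lmFit and tested on simulated data. Every adjusted p in the text comes from this fit, and errors beside differences are its SE.

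The members, roles and lists were chosen with earlier results of these data known. Values on every array are given for the 10 largest called differences at 8 h, the leading 2 called members of each role (the smallest p where none was called), and any member called in the direction opposite to most; other genes were named within their role or as the 3 largest called of a list at 8 h (all of them where a direction had 5 or fewer calls), and the 9 genes of the plot by time after their values were seen. Alternatives were no centring, quantile normalization, all probes of a gene averaged, genes on all arrays alone, unnamed probes added, array weights, fits of the compared groups alone, leaving out 4 arrays with earlier database numbers, repeat number as a block, and leaving out each array.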

Additional observations from a re-analysis of the deposited data

Results flagged for a closer look

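The effect of CpG ODN relative to control ODN differed between 2 h and 8 h by a limma interaction test for 8 members. It grew for Rrp1b (2.23), Wdr36 (1.94), Nop58 (1.56), Wdr12 (1.43), Rrp15 (1.39), Nol11 (1.27) and Gar1 (1.23) and moved down for Ddx24 (-1.39), all on the log2 scale; Ddx24 had 2 control ODN arrays at 2 h, and the Wdr12 call was lost without CpG ODN replicate 3 at 8 h.

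In 3 of 82 groups of 4 arrays checked over 15 members, 1 array stood apart from the other three, and chance alone would single out about 1 in 20 groups. Ddx39a read -1.34 on control ODN replicate 2 at 4 h, with the nearest array at -0.45. Npm1 read -0.61 on medium replicate 4 at 4 h, with the nearest at -1.06. Wdr12 read -1.83 on CpG ODN replicate 2 at 2 h, with the nearest at -1.13.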

How the results depend on the processing

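Of 257 recomputed counts of called members, 242 stayed within 1.5 times the reported count, and of 1175 recomputed single-member differences, 1062 kept their call, 113 lost it and 0 reversed. At 8 h the calls of Ddx39a, Gar1, Nol11, Nop58, Rrp15, Rrp1b, Wdr12 and Wdr36 against control ODN held in every setting that could be computed for them. For Nol11 this was 13 settings. Leaving out either control ODN array that measured Nol11 at 8 h was not among them, since too few arrays would remain. With the compared groups alone in the fit, 11 members were called against medium at 8 h, 0 from 2 h to 8 h in medium and 1 from 2 h to 8 h with control ODN. That fit ended the calls of Ddx21, Polr1e, Rrp7a and Utp20 against control ODN at 8 h. Against medium at 8 h it ended those of Ddx21, Rrp7a, Rrp8, Utp14a, Utp20 and Wdr75. Array weights gave 1 member against medium at 2 h, lower, and 17 for the change of the difference from 2 h to 8 h. Leaving out 1 array gave 11 to 19 members against control ODN at 8 h, 13 to 17 against medium at 8 h, 3 to 7 over time in medium, 2 to 5 with control ODN, 9 to 17 with CpG ODN and 7 to 11 for the change of the difference to 8 h; the remaining comparisons stayed at 0. Quantile normalization raised the share of higher calls among all genes at 8 h from 45.5% to 66.1% against control ODN and from 48.1% to 63% against medium, while the member medians moved to 0.38 and 0.34. The number of arrays limits precision. Recomputed counts of members are given without the share of all genes called in the same setting, so a general change in the number of calls is not separated.

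Repeat numbers were shared between groups, and most arrays followed them: 24 of 33 were closest to their own number. The pairing did not hold for every number. The deviations of same-numbered arrays correlated between -0.141 and 0.645 at 2 h, -0.275 and 0.615 at 4 h and -0.028 and 0.56 at 8 h. For replicate 3 at 2 h they lay between -0.141 and -0.033, and for replicate 2 at 4 h between 0.43 and 0.615. The main fit did not use the repeat number. With the repeat number as a replicate block within each time, 22 members were called against control ODN and 24 against medium at 8 h, 9 from 2 h to 8 h with control ODN, and 14 for the change of the difference to 8 h. With a block shared across times, 19 and 18 were called at 8 h. These counts too are given without the share of all genes called in the same fit, so a general change in calls is not separated.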
